A study of Mus musculus with 20 samples.

Results

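Variants near many genes have been associated with atrial fibrillation, and only some of these genes encode ion channels. The genes described here are 9 that do not, namely Neurl1a, Syne2, Zfhx3, Prrx1, Cav1, Cav2, Sh3pxd2a, Cand2 and Myoz1, followed in the atria of mice that carry a missense allele of the T-box transcription factor Tbx5. They were chosen by gene symbol in the right atrium table and by the same Ensembl ID in the left atrium table, and all 9 were found among 33446 genes of the right atrium table and 41128 genes of the left. The rule uses symbols and IDs, and the genes were put forward with earlier results of these data known.

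Each atrium was taken whole from female mice of 8 to 12 weeks, and its RNA was sequenced, in 20 libraries. There were 5 libraries each of control right atria, Tbx5G125R/+ right atria, control left atria and Tbx5G125R/+ left atria. Every mutant animal was heterozygous for the allele from the germ line, so all cells of the atrium carried it, and the labels name no treatment of either genotype. The strain is not given in the labels, and the right atria of both genotypes included sinoatrial node tissue. The labels do not say which libraries came from the same animal, and p-values measure only the spread between these libraries.

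A locus is usually named after the nearest gene, and the variants mostly lie in sequence that does not code for protein, so the gene through which a locus acts is often not settled. The genes divide by role into enzymes and adaptors of ubiquitin ligases (Neurl1a, Cand2), parts of the nuclear envelope and of the sarcomere (Syne2, Myoz1), transcription factors (Zfhx3, Prrx1), and proteins of the cell surface and its adhesions (Cav1, Cav2, Sh3pxd2a). Cav1 and Prrx1 are known mainly from endothelial cells and from mesenchymal cells such as fibroblasts, and the nuclear envelope and Z-disc genes from muscle, so whole atria mix several sources of these transcripts.

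Right atrium libraries held 17.5 to 26.8 M reads and left atrium libraries 19.1 to 24.8 M. Mitochondrial rRNA took 7.28% to 15.7% of the reads of a right library and 19.5% to 46.7% of a left one. Summed markers of the atrial chamber ranged from 328291 to 465237 normalized counts in right libraries and from 61718 to 117392 in left ones. The atria were normalized separately, so these sums were not compared between them. Foreign tissue showed in single libraries: Ucp1, the thermogenic protein of brown fat, was at 795 in left control 1 and at 10.3 or less in the other left controls, and Myl2, the ventricular light chain, was at 902 in left control 5 and at 3.78 or less in the other left controls. In right atria Myl2 was at 44.9 to 225 in controls and 9.61 to 47.6 in mutants, and Ucp1 at up to 2.53 in controls and up to 54.9 in mutants. Tbx5 itself was not called in either atrium, with log2 fold changes of 0.02 (right) and 0.08 (left) and limma adjusted p of 0.937 and 0.794.

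The first question was how abundant each gene was in control atria, measured as normalized counts (reads divided by a size factor for the library) per kb of merged exons. In right atria Cav1 stood highest at 2082 ± 176 (SD, n = 5) per kb, above 97.9% of the tested genes. Cav2 (331 ± 82.3 per kb) and Cand2 (308 ± 27.6) followed with ranges that overlapped each other, then Sh3pxd2a (242 ± 27.8) and Syne2 (231 ± 20.2), which overlapped as well. Prrx1 was at 67.0 ± 9.91 per kb, Zfhx3 at 13.9 ± 1.65 and Neurl1a at 12.1 ± 3.23, of which the last pair overlapped. Myoz1 was lowest at 2.19 ± 0.622 per kb.

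In left controls Cav1 was at 5153 ± 913 per kb and Cav2 at 1414 ± 278, above 99.6% and 97.7% of the tested genes of that table. Prrx1 came next at 155 ± 27.1 per kb, and its range overlapped that of Syne2 (106 ± 25.9). Syne2 overlapped Sh3pxd2a (75.3 ± 10.9), which overlapped Cand2 (65.6 ± 9.53). Zfhx3 followed at 7.04 ± 1.61 per kb, Neurl1a at 0.925 ± 0.788 and Myoz1 at 0.489 ± 0.322, and the last pair overlapped. Each atrium has a table with its own normalization, and these levels were not compared across atria.

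**Figure D1:**
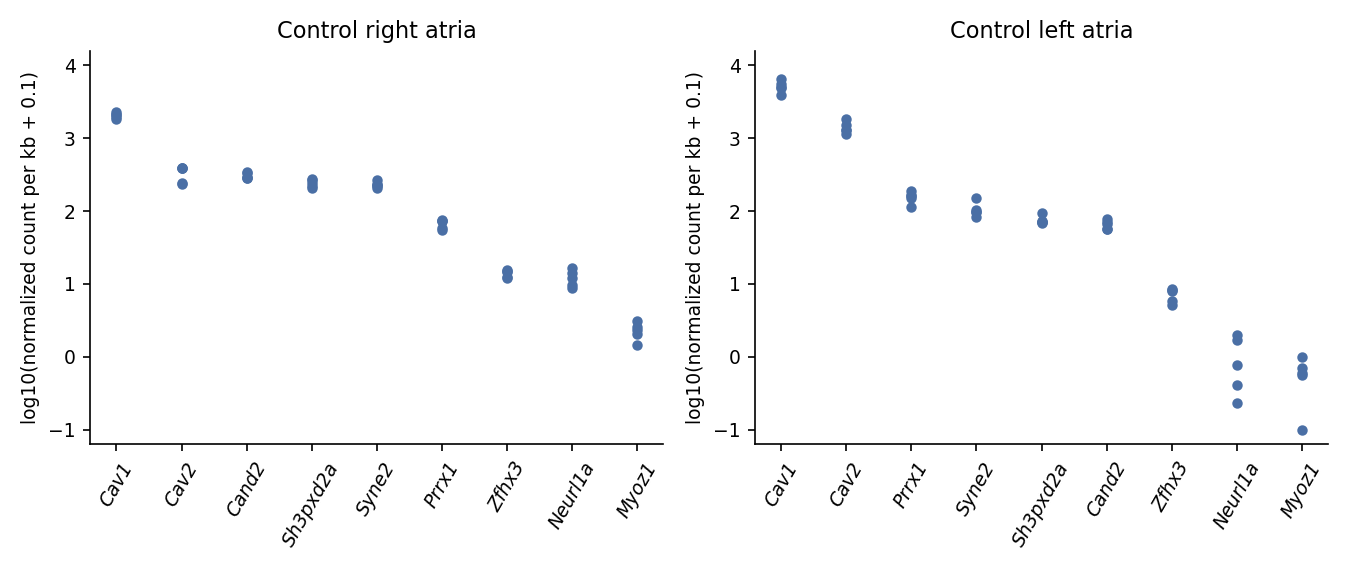
Level of each gene in the 5 control libraries of each atrium, as log10 of normalized counts per kb of merged exons plus 0.1, ordered by mean. Cav1 is highest and Myoz1 lowest in both panels.

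The second question was which of these genes differ between genotypes. In the right atrium Neurl1a rose 2.72-fold and Syne2 rose 1.28-fold in mutants, on the scale of log2(normalized count + 1). Myoz1 was higher in every mutant than in every control, at a level too low for the main test. The same held for 2.38% of right genes with a mean of 5 to under 10 normalized counts. Of the 9 genes, 8 passed the filter of a mean of 10 normalized counts and were tested, 2 were called higher, 0 lower and 6 were not called. Over all 14288 genes tested in the right atrium, 6.23% were called in either direction and 3.09% higher. The median log2 fold change of the 8 was -0.08, against -0.01 over all genes tested. In the left atrium 8 were tested and 0 were called, where 1.20% of 13192 genes were called. By name, Neurl1a and Cav2 had an unadjusted limma p under 0.05 there, as had 16.6% of all genes tested. The left median was -0.26, against -0.01 over all genes tested.

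**Figure D2:**
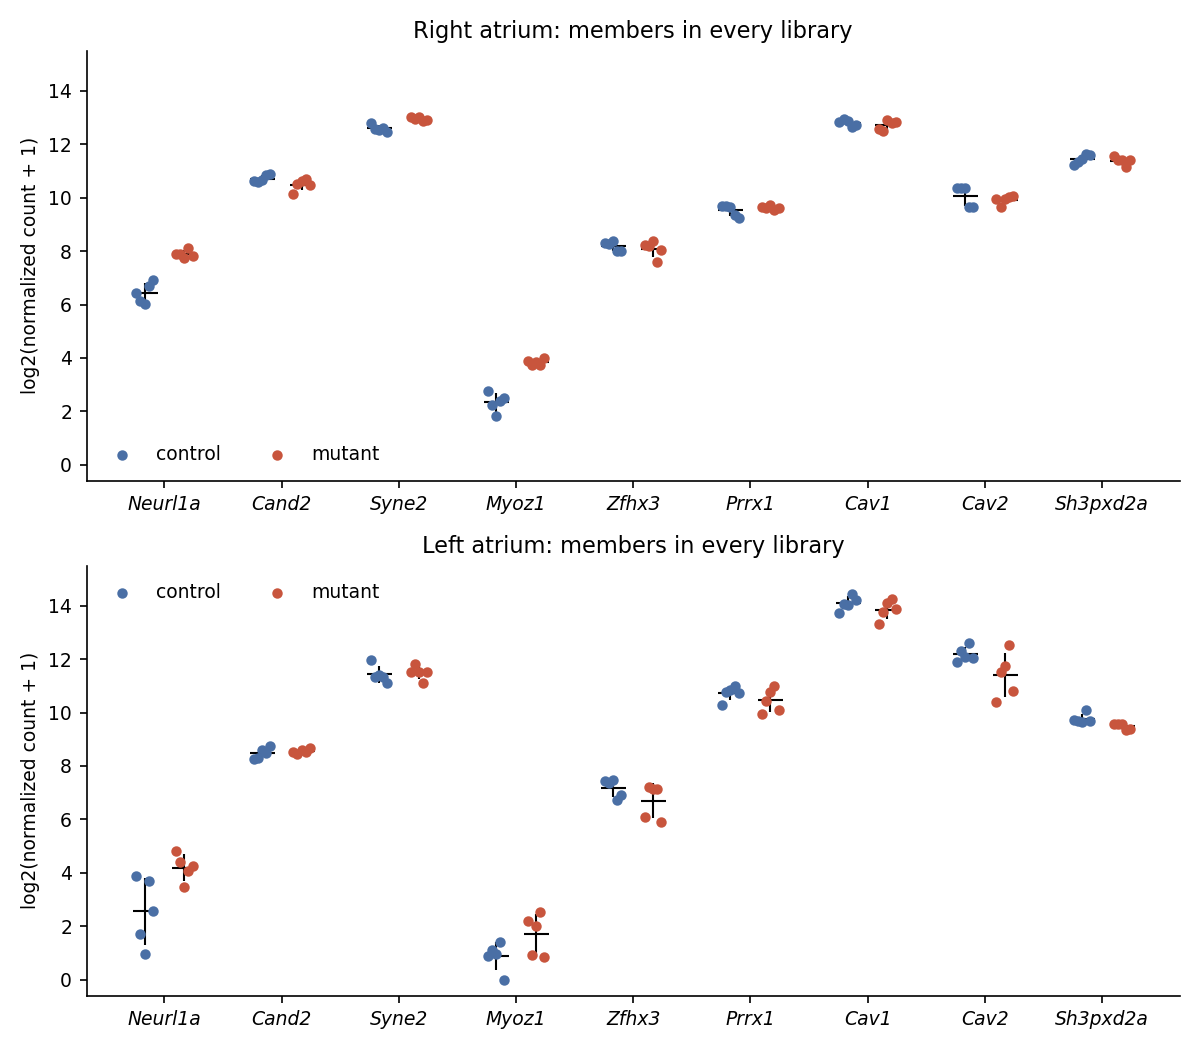
Level of the 9 genes in every library, as log2(normalized count + 1), for 5 control (blue) and 5 mutant (red) libraries of the right (top) and left (bottom) atrium, with the mean and SD of each group in black. In the right atrium the mutant points of Neurl1a, Syne2 and Myoz1 lie above all control points. That pattern holds for 3.53% of right genes tested, and for 2.38% of those with a mean of 5 to under 10.

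Neurl1a (ENSMUSG00000006435) encodes a RING-type E3 ubiquitin ligase, whose fly counterpart neuralized acts in Notch signalling by driving the uptake of Notch ligands. It lies on the forward strand of chromosome 19 from 47178820 to 47259441 in the GENCODE M21 annotation of mm10. Its exons share 690 bases with AC132288.2, an unproven same-strand transcript without values in either atrium, so the source of reads there is not known. Its RefSeq promoter, 250 bases before to 50 after the start site at chr19:47178570-47178869 (GRCm38.p6, forward strand), is shown because it carries the largest called change among the 9 genes, with a match to the KLF/SP box GGGCGG or its reverse complement CCGCCC in capitals.
Neurl1a: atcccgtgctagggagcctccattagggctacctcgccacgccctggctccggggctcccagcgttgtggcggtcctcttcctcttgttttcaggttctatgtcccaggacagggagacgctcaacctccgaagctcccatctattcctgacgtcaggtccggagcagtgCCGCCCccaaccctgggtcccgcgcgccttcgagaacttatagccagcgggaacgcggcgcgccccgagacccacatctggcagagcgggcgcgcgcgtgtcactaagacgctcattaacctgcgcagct
The match lies 80 bases before the start site. The KLF/SP box is found in 35.7% of 32851 RefSeq promoters of this length when both strands are searched. The T-box element AGGTGT or its reverse complement ACACCT, found in 13.7% of them, has no match in this window.

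In control right atria 1 to 5, Neurl1a was at 85.7, 69.6, 63.1, 103 and 120 normalized counts. In mutant right atria 1 to 5 it was at 234, 236, 212, 274 and 225. The lowest mutant stood well above the highest control, and the 2 groups did not overlap, as for 3.53% of right genes tested, where mutants were higher. The means were 88.3 ± 23.5 and 236 ± 23.4 (SD, n = 5 each), a log2 fold change of 1.44 ± 0.16 (SE, 95% interval 1.09 to 1.80) with a limma adjusted p of 1.26e-04. The call held when any single library was left out (adjusted p 2.95e-05 to 6.34e-04) and was lost when all 4 groups shared one estimate of the spread, where the SE was 0.40 and the adjusted p 0.0721 and where 2.04% of right genes were called.

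In left atria Neurl1a rested on few reads. Control left atria 1 to 5 held 16, 2, 1, 7 and 5 reads, or 13.8, 2.28, 0.946, 11.8 and 4.90 normalized counts. Mutant left atria 1 to 5 held 38, 22, 10, 13 and 23 reads, or 26.9, 20.1, 9.96, 15.6 and 18.2 normalized counts. Mutants 1, 2, 4 and 5 were above every control, while mutant 3 lay below controls 1 and 4. The log2 fold change was 1.64 ± 0.53 (SE, 95% interval 0.50 to 2.78) with a limma adjusted p of 0.190, and the gene passed the filter only through the mutant libraries. With all 4 groups in one model the adjusted p was 0.0167, in a fit that called 9.67% of left genes. The left change minus the right change was 0.19 ± 0.57 (SE), with an interval from -0.99 to 1.37 and a limma adjusted p of 0.895, so the data do not place the left change above or below the right one.

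Sh3pxd2a (ENSMUSG00000053617), the neighbour of Neurl1a, encodes Tks5, a scaffold protein of podosomes, which are actin-rich adhesions that degrade matrix. It lies on the reverse strand from 47260174 to 47464401 on chromosome 19, and the 2 genes end 733 bases apart. Right atria gave 2800 ± 323 normalized counts in controls and 2676 ± 272 in mutants (SD, n = 5 each), a log2 fold change of -0.06 ± 0.09 (SE, 95% interval -0.26 to 0.13, adjusted p 0.728). In left controls 1 to 5 Sh3pxd2a was at 842, 820, 794, 1097 and 812 normalized counts. In left mutants 1 to 5 it was at 750, 753, 761, 645 and 667. Every left mutant was below every left control, as for 1.46% of all left genes tested, and control 4 stood apart from the other controls. The log2 fold change of -0.28 ± 0.13 (SE, 95% interval -0.57 to 0.01) did not pass the limma test (adjusted p 0.310).

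A ratio within a library does not depend on its size factor, so Neurl1a was also set against Sh3pxd2a in each library. In right atria the log2 ratio ran from -5.44 to -4.67 in controls and from -3.68 to -3.03 in mutants, a difference of 1.51 (exact permutation p = 0.00794, the smallest that 5 against 5 libraries allow, 0.0317 adjusted over 4 ratio tests). In left atria it ran from -8.68 to -5.84 in controls and from -6.12 to -4.75 in mutants, a difference of 1.92 (exact permutation p = 0.0159, adjusted 0.0317). The groups did not overlap in the right atrium. Neurl1a alone was already apart there and Sh3pxd2a changed little (log2 fold change -0.06), so this ratio repeats that result and is no second test. In the left, mutant 3 lay below control 1, and the ratio rests on the 1 to 16 reads of Neurl1a in the controls. The main test of left Neurl1a gave an adjusted p of 0.190. The left ratio reuses those counts together with Sh3pxd2a, already seen lower in every left mutant, so it is no second test either.

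**Figure D3:**
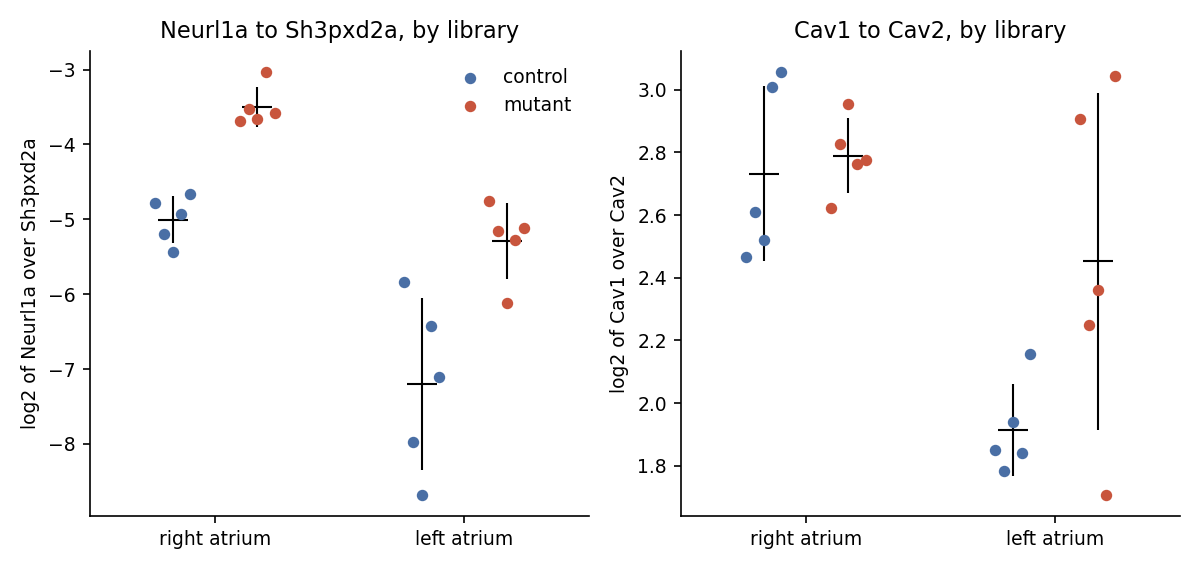
Log2 ratio of 2 neighbouring genes within each library, Neurl1a over Sh3pxd2a (left panel) and Cav1 over Cav2 (right panel), for 5 control (blue) and 5 mutant (red) libraries of each atrium, with mean and SD in black. The right atrium groups of the first ratio are apart, at -5.44 to -4.67 and -3.68 to -3.03.

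Cand2 (ENSMUSG00000030319), a muscle-enriched protein that binds cullins and exchanges the substrate adaptors of cullin ubiquitin ligases, is on chromosome 6 from 115774538 to 115805557. Its control right atria were at 1578, 1549, 1609, 1820 and 1878 normalized counts and its mutant right atria at 1134, 1459, 1557, 1668 and 1419. Mutants 1, 2 and 5 were below every control, and mutants 3 and 4 lay within the control range. The log2 fold change was -0.23 ± 0.10 (SE, 95% interval -0.44 to -0.02), with an unadjusted p of 0.0370 and a limma adjusted p of 0.204. Without mutant 1 it was -0.14 (unadjusted limma p 0.0904). In left atria it was 0.08 ± 0.14 (adjusted p 0.757). The exons of Cand2 share 53 bases with those of Rpl32, which is read from the opposite strand. Reads of that stretch can be assigned only where a library marks strand, which was not examined.

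The partners of these proteins were counted from lists of general knowledge. Among all genes tested, 6.23% were called in the right atrium and 1.20% in the left. In the Notch pathway list 20 genes were tested in each atrium and 0 were called by limma, with a median log2 fold change of -0.06 in the right and -0.11 in the left. In the list of cullin ubiquitin ligases 19 were tested in each atrium and 0 were called, with medians of -0.06 and -0.11. The podosome list gave 0 called of 17 tested in the right atrium and 0 of 15 in the left. The paralogs Neurl1b, Sh3pxd2b and Cand1 were not called in either atrium. Their right atrium log2 fold changes were 0.25 ± 0.18 (SE), 0.28 ± 0.12 and 0.02 ± 0.07.

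Syne2 (ENSMUSG00000063450) encodes nesprin-2, a giant protein of the outer nuclear membrane that ties the nucleus to the cytoskeleton. It spans 293 kb on the forward strand of chromosome 12, from 75818134 to 76110926. Its RefSeq promoter at chr12:75818068-75818367 (GRCm38.p6, forward strand) is shown as that of the other called gene, with KLF/SP box matches in capitals.
Syne2: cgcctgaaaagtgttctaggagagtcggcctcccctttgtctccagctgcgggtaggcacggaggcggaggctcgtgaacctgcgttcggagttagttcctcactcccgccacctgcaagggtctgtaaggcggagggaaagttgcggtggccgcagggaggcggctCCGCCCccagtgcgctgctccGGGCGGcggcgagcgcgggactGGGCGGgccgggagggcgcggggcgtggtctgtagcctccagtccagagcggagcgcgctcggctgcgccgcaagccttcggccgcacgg
There are 3 matches, at 83, 62 and 40 bases before the RefSeq start site, and the T-box element has none in this window. At least 1 KLF/SP box is found in 35.7% of RefSeq promoters of this length. The GC content is 71.0%, above that of 91.8% of RefSeq promoters.

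Syne2 was at 7043, 6060, 5916, 6273 and 5607 normalized counts in control right atria 1 to 5. In mutant right atria 1 to 5 it was at 8337, 7823, 8256, 7414 and 7779. The lowest mutant lay above the highest control, a pattern found, with mutants higher, for 3.53% of right genes tested. Mean levels were 6180 ± 540 and 7922 ± 378 (SD, n = 5 each), a log2 fold change of 0.36 ± 0.07 (SE, 95% interval 0.21 to 0.51) and a limma adjusted p of 0.00745. The call held without any single library (adjusted p 0.00201 to 0.0254) and was lost with all 4 groups in one model (adjusted p 0.303).

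In left atria Syne2 did not pass the test. Left controls were at 4027, 2596, 2733, 2595 and 2229 normalized counts, and left mutants at 2907, 3584, 2960, 2185 and 2959. Control 1, the library with Ucp1, was the highest of all 10, and the groups overlapped throughout. Their log2 fold change was 0.05 ± 0.18 (SE, 95% interval -0.32 to 0.43, adjusted p 0.874). Without control 1 it was 0.19, and an increase of the size seen in the right atrium lies inside the interval. The left change minus the right change was -0.31 ± 0.19 (SE), with an interval from -0.70 to 0.09 and a limma adjusted p of 0.591.

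Among 12 tested genes of the bridge between nucleus and cytoskeleton in the right atrium, 0 were called higher and 1 lower, beside 6.23% of all right genes called. This was Lmna, which encodes the A-type lamins under the inner nuclear membrane, at 3694 ± 347 normalized counts in controls and 2757 ± 184 in mutants (SD, n = 5 each), a log2 fold change of -0.42 ± 0.08 (SE) with a limma adjusted p of 0.00452. Its control and mutant values did not overlap, with mutants lower, a pattern of 3.83% of right genes tested. The paralog Syne3 had a right atrium log2 fold change of 0.01 ± 0.07 (SE, adjusted p 0.934). Syne1 was tested in the left atrium alone, where it had a log2 fold change of 0.00 ± 0.17 (SE, adjusted p 0.989).

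Myoz1 (ENSMUSG00000068697) encodes myozenin 1, or calsarcin-2, a Z-disc protein that binds calcineurin and is best known from fast skeletal muscle. The gene lies on the reverse strand of chromosome 14 from 20649107 to 20656540. Control right atria 1 to 5 held 6, 4, 2, 4 and 5 reads, and mutant right atria 1 to 5 held 12, 11, 15, 14 and 17. In normalized counts these were 5.72, 3.66, 2.53, 4.21 and 4.61 against 13.9, 12.3, 13.3, 12.2 and 15.1. Each mutant held more than 2 times the count of the highest control, and the groups did not overlap, as for 2.38% of right atrium genes with a mean of 5 to under 10 normalized counts, where mutants were higher. Myoz1 is in that band only through the mutant libraries, with means of 4.15 in controls and 13.4 in mutants.

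The mean over the right libraries was 8.76, under the filter. Without a filter the log2 fold change was 1.51 ± 0.31 (SE) with a limma adjusted p of 0.0123, where 1.73% of 25103 genes were called higher, and the exact permutation p was 0.00794, the smallest possible with 5 against 5 libraries. Leaving out single libraries gave adjusted p from 0.0121 to 0.0377 in that fit. These fits of Myoz1 and the exact test were added after its values were seen. Groups that do not overlap give that smallest exact p by construction, so it adds no support of its own. In left atria Myoz1 had 0 or 1 read in each control and 5, 1, 3, 4 and 1 in the mutants (exact permutation p = 0.111). The left values thus rest on 0 to 5 reads a library.

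Its neighbour Synpo2l, a Z-disc gene that lies 2.41 kb away, was at 4312 ± 604 and 3963 ± 460 normalized counts in control and mutant right atria (SD, n = 5 each), with an adjusted p of 0.553. Myoz2, the paralog that heart muscle expresses, was at 13376 ± 2209 and 10330 ± 454 (log2 fold change -0.36 ± 0.11 SE, adjusted p 0.0729), and Myoz3 was at 0 in all libraries. Of the calcineurin and Z-disc list, 19 genes were tested in each atrium and 0 were called by limma. The shares called over all genes tested were 6.23% (right) and 1.20% (left).

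**Figure D4:**
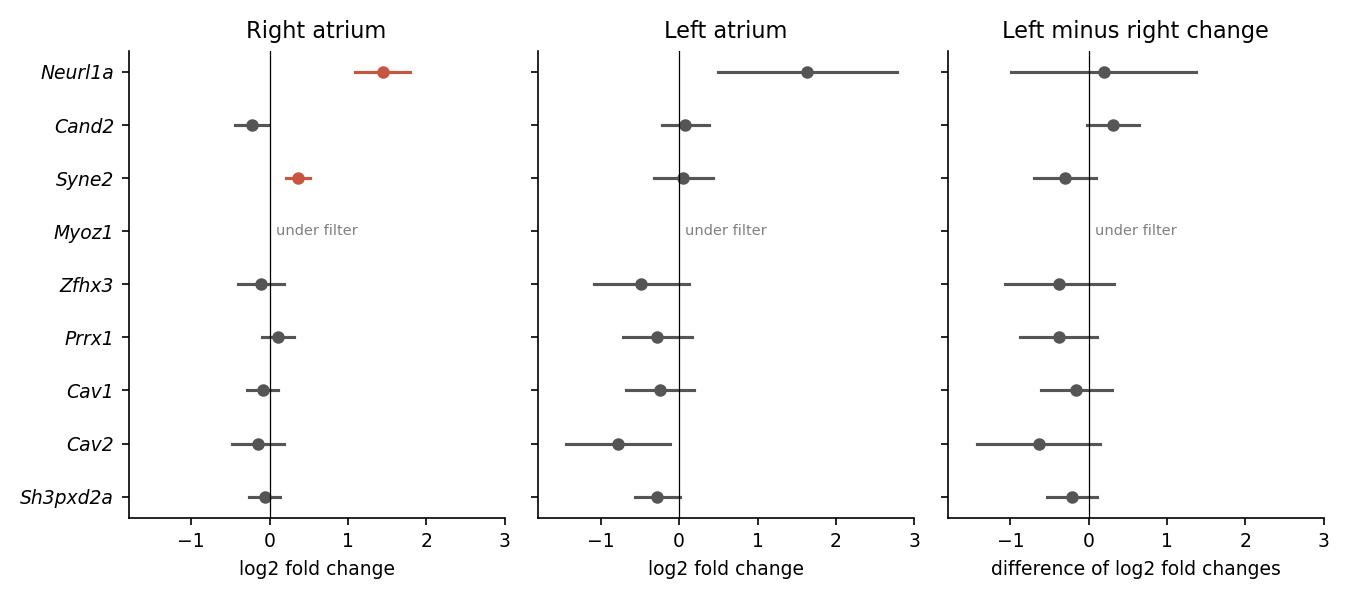
Log2 fold change of each gene, mutant minus control, in the right atrium (left panel) and left atrium (middle panel), and the left change minus the right change (right panel), with 95% intervals from limma; red marks an adjusted p under 0.05. Only Neurl1a and Syne2 in the right atrium are red, and Myoz1 lay under the filter.

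Zfhx3 (ENSMUSG00000038872) encodes a large transcription factor with zinc fingers and homeodomains and spans 1019 kb on chromosome 8, from 107942644 to 108961630. Right controls 1 to 5 were at 317, 305, 328, 258 and 253 normalized counts and right mutants at 296, 292, 328, 193 and 261. The groups overlapped, with a log2 fold change of -0.11 ± 0.14 (SE, 95% interval -0.40 to 0.19, adjusted p 0.694). Left controls were at 172, 164, 179, 104 and 119, and left mutants at 67.2, 149, 140, 141 and 58.6. Mutants 1 and 5 were the lowest of the left libraries, and the other mutants lay among the controls. The left log2 fold change of -0.48 ± 0.28 (SE, 95% interval -1.09 to 0.12) did not pass the test (adjusted p 0.371), and it was -0.28 without mutant 5 and -0.33 without mutant 1. The paralog Zfhx2 had a right atrium log2 fold change of 0.48 ± 0.16 (SE, adjusted p 0.0981), and Zfhx4 of 0.20 ± 0.23 (adjusted p 0.655).

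Prrx1 (ENSMUSG00000026586), a homeobox transcription factor of mesenchymal cells, lies on the reverse strand of chromosome 1 from 163245119 to 163313710. Its right controls were at 832, 818, 812, 644 and 601 normalized counts and its right mutants at 805, 778, 844, 742 and 788. The mutants lay closer together than the controls, with an SD of 37.7 against 110. Their log2 fold change was 0.11 ± 0.10 (SE, 95% interval -0.10 to 0.31, adjusted p 0.555). In left atria controls were at 1244, 1754, 1858, 2054 and 1688 and mutants at 982, 1390, 1749, 2039 and 1099, a log2 fold change of -0.28 ± 0.20 (SE, 95% interval -0.72 to 0.16, adjusted p 0.450). Prrx2, its paralog, was not called in the right atrium (log2 fold change -0.50 ± 0.27 SE, adjusted p 0.314) and lay under the filter in the left.

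Cav1 (ENSMUSG00000007655) and Cav2 (ENSMUSG00000000058) encode caveolins, the coat proteins of the membrane pits called caveolae, and caveolin-2 forms its complexes with caveolin-1. They lie on the forward strand of chromosome 6, Cav2 from 17281185 to 17289115 and Cav1 from 17306335 to 17341452, with 17.2 kb between them. The RefSeq promoter of Cav2 at chr6:17280935-17281234 (GRCm38.p6, forward strand) is shown because it is the only one among the members' 7 promoter entries with a T-box element, in capitals together with the KLF/SP box.
Cav2: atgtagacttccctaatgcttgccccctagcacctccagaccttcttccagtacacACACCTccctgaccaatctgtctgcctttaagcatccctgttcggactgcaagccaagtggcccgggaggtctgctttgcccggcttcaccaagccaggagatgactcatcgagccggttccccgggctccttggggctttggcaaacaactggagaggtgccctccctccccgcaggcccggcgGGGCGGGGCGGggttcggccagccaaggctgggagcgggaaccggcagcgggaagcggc
The T-box element is read on the reverse strand 194 bases before the start site, and 2 overlapping KLF/SP boxes lie 9 and 4 bases before it. Over 32851 RefSeq promoters of this length, 13.7% hold the T-box element and 35.7% the KLF/SP box. Promoter entries were found for 6 of the 9 genes, and those of Zfhx3 and Prrx1 hold neither motif. The Zfhx3 entry starts at 108714394 on chromosome 8, inside the gene, whose annotated start is 107942644. Sequence upstream of that start was thus not searched.

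In right atria the caveolins did not pass the test. Cav1 was at 7170 ± 607 normalized counts in controls and 6770 ± 809 in mutants (SD, n = 5 each), a log2 fold change of -0.09 ± 0.09 (SE, 95% interval -0.28 to 0.11, adjusted p 0.613). Right controls of Cav2 were at 1308, 1302, 1305, 796 and 813, and right mutants at 983, 812, 979, 1038 and 1074. Controls 4 and 5 stood well below controls 1 to 3, with the mutants between them or level with the low pair, and the change was -0.14 ± 0.15 on the log2 scale (SE, 95% interval -0.48 to 0.19, adjusted p 0.626).

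Left atria showed lower Cav2 levels in most mutants, without passing the test. Left controls of Cav2 were at 3766, 4992, 4381, 6180 and 4256 normalized counts, and left mutants at 1346, 2908, 3403, 5922 and 1807. Mutants 1, 2, 3 and 5 were below every control, and mutant 4 was above all controls but control 4. The log2 fold change was -0.78 ± 0.31 (SE, 95% interval -1.45 to -0.12), with an unadjusted p of 0.0240 and a limma adjusted p of 0.250. Single libraries moved it widely: it was -1.07 without mutant 4 (adjusted p 0.0357, in a fit that called 2.81% of genes) and -0.53 without mutant 1 (adjusted p 0.582), the ends of the leave-one-out range. Cav1 in left controls was at 13579, 17178, 16830, 22151 and 19005, and in left mutants at 10094, 13821, 17495, 19358 and 14896, a log2 fold change of -0.25 ± 0.20 (SE, 95% interval -0.68 to 0.19, adjusted p 0.497).

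The ratio of Cav1 to Cav2 within a library did not differ between genotypes in the right atrium by more than the spread (log2 difference 0.06, exact permutation p = 0.667). In the left atrium the log2 ratio ran from 1.78 to 2.16 in controls, and in mutants 1 to 5 it was 2.91, 2.25, 2.36, 1.71 and 3.04. It was higher in mutants 1, 2, 3 and 5 than in every control and lowest of all in mutant 4. The mean difference was 0.54 (exact permutation p = 0.0794, 0.106 adjusted over 4), and without mutant 4, the library that went against the others, it was 0.72.

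**Figure D5:**
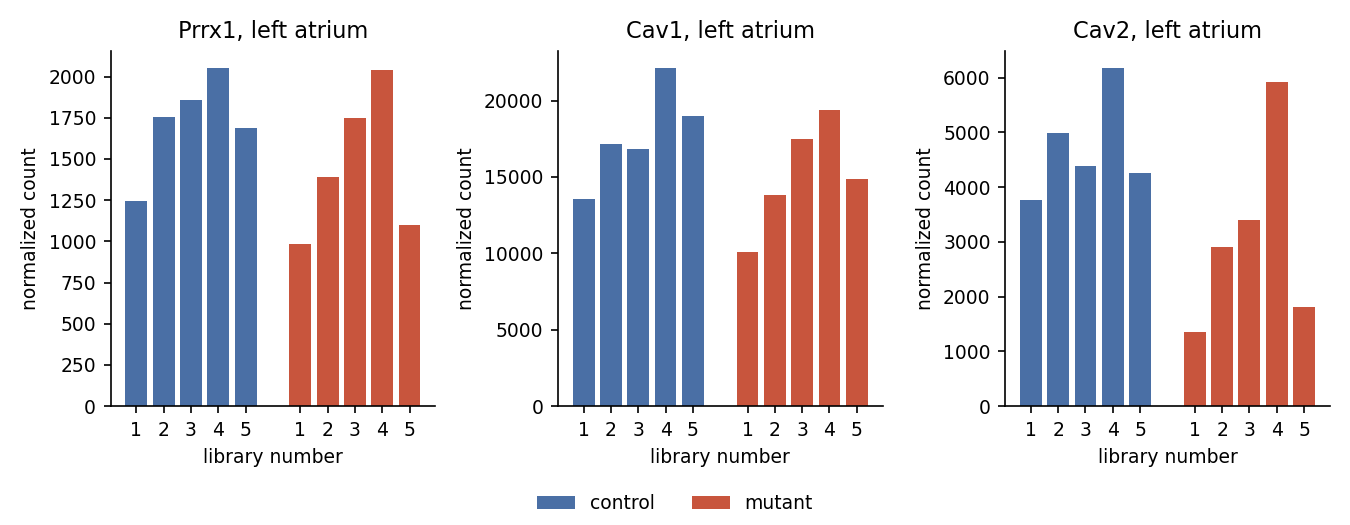
Normalized counts of Prrx1, Cav1 and Cav2 in left control libraries 1 to 5 (blue) and left mutant libraries 1 to 5 (red), 1 bar per library and no error bars. Mutant 1 is the lowest bar and mutant 4 the highest mutant bar in each panel, at 1346 and 5922 for Cav2.

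Prrx1, Cav1 and Cav2 followed each other among libraries of a group, more closely in left than in right atria. After subtraction of each group's mean, their log2 values had Pearson correlations of 0.92 (Prrx1 and Cav2), 0.82 (Prrx1 and Cav1) and 0.81 (Cav1 and Cav2) over the 20 libraries, given as descriptions that share library and depth. In the right libraries alone these were 0.86, 0.50 and 0.70, and in the left ones 0.93, 0.88 and 0.84. Cell type markers differed between the same libraries. Summed normalized counts of 12 fibroblast markers were 243654, 263928 and 301455 in right controls 1 to 3 and 168477 and 143980 in right controls 4 and 5, the libraries low in Prrx1 and Cav2. Right mutants did not repeat this for Prrx1. Right mutants 1 and 2 had the lowest sums of their group, 140672 and 123523, with Prrx1 at 805 and 778 and Cav2 at 983 and 812. In left mutants 1 and 5, low in Zfhx3, Prrx1 and Cav2, the sums were 36991 and 34979, against 45323 to 76108 in the other left mutants. Sums of 12 endothelial markers were 16971 and 18946 in those 2 left mutants, against 22658 to 25195 in the other left mutants. The left controls went the other way. Left control 1 had the highest fibroblast and endothelial sums of that group, 84719 and 45764, and its lowest Prrx1, Cav1 and Cav2. Left control 4, highest of that group in these 3 genes, had sums of 60818 and 29993, within the range of the other left controls. Mitochondrial rRNA was also at its lowest of the left libraries in mutant 1 (19.5%) and at its highest in control 4 (46.7%) and mutant 4 (42.2%). The part of these values in the results was not tested, and in whole atria fewer cells of a type and less RNA per cell cannot be told apart.

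Between genotypes the same markers gave the following. Over all genes tested, limma called 6.23% in the right atrium (3.09% higher and 3.14% lower) and 1.20% in the left. In right atria 12 of 12 fibroblast markers had a negative log2 fold change (median -0.31) and 1, Postn, was called lower. Fibroblast sums ran from 143980 to 301455 in control and from 123523 to 228224 in mutant right atria. The 12 endothelial markers had 4 positive and 8 negative values in the right atrium (median -0.11), and 1, Kdr, was called higher. In left atria 9 of 12 fibroblast markers were negative (median -0.23) and 12 of 12 cardiomyocyte markers positive (median 0.36), with 0 called in either list. The 8 mesothelial markers were negative in both atria (medians -0.56 right and -0.72 left) with 0 called, and of 8 macrophage markers 7 were negative in the right (median -0.36) and 6 in the left (median -0.05), also with 0 called. Adipocyte markers had medians of -0.81 over 7 tested genes in the right and -0.79 over 5 in the left, with 0 called. Ventricular markers were called lower for 2 of 4 tested genes in the right (Myl2 and Myl3, median of the list -1.05) and 1 of 4 in the left (median -1.45). Of sinoatrial node markers 2 of 9 were called lower in the right (median -0.17), and 1 higher and 1 lower of 8 in the left (median -0.38). Smooth muscle and pericyte markers gave 1 higher and 2 lower of 9 in the right (median -0.05) and 0 called of 8 in the left (median 0.41). The part of these markers in the changes of the 9 genes was not tested. No marker of the fibroblast, endothelial and cardiomyocyte lists was at 0 in all libraries of a group.

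The caveola list was lower in the right atrium for 2 of 13 tested genes and higher for 0, where 3.14% of all right genes tested were called lower. Cavin4, the muscle cavin of the caveolar coat, was at 853 ± 117 normalized counts in controls and 536 ± 71.0 in mutants (SD, n = 5 each), a log2 fold change of -0.67 ± 0.11 (SE, limma adjusted p 0.00301). Ehd1, an ATPase of membrane trafficking, was at 1580 ± 119 and 1235 ± 109, a log2 fold change of -0.36 ± 0.07 (SE, limma adjusted p 0.0127). Neither gene overlapped between genotypes, as for 3.83% of all right genes tested, where mutants were lower. Of the 13, 11 had a negative value, with a median of -0.13. In the left atrium 0 of 13 were called, beside 1.20% of all left genes tested, and the median was 0.06. Cav3, the caveolin of muscle cells, was not called in the right (log2 fold change -0.23 ± 0.15 SE, adjusted p 0.413) or the left atrium (0.04 ± 0.31, adjusted p 0.948).

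The difference between atria was not called for any of the 8 genes tested for it. Limma adjusted p ran from 0.586 (Cand2) to 0.895 (Neurl1a), where 0.0689% of 14507 genes were called. The estimates largest relative to their SE were those of Cand2, 0.31 ± 0.16 (SE), and Cav2, -0.64 ± 0.38, each as the left change minus the right one.

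Other genes of non-channel fibrillation loci gave a reference. Of 36 tested in the right atrium, 4 were called higher and 2 lower, against 6.23% of all genes tested. The 4 with the lowest adjusted p were Pln, the inhibitor of the sarcoplasmic calcium pump (log2 fold change -1.15 ± 0.11 SE), the T-box factor Tbx20 (0.61 ± 0.10), the desmosomal plakophilin Pkp2 (-0.44 ± 0.08) and the apoptosis regulator Cflar (0.25 ± 0.06). The median of the list was 0.01. In the left atrium 0 of 35 were called by limma, beside 1.20% of all left genes tested, with a median of 0.01.

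The nearest tested genes on either side of the 9 genes were looked at as well. None that was not itself one of the 9 was called in either atrium, beside 6.23% (right) and 1.20% (left) of all genes tested. Next to Syne2, Esr2 lies 9.49 kb away and had a right atrium log2 fold change of 0.17 ± 0.28 (SE, adjusted p 0.771), and Sgpp1 on the other side had -0.02 ± 0.07 (adjusted p 0.930). Next to Neurl1a, Calhm2 had -0.17 ± 0.17 (adjusted p 0.586).

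The genes whose levels followed each member most closely over the 20 libraries, after subtraction of group means, were also noted as a description. For Neurl1a these were Nudt8 (Pearson r 0.87), Plcb3 (0.86) and Nat8l (0.85), and for Syne2 Phlpp2 (0.88), Ahsg (0.87) and C2cd3 (0.86). Zfhx3 was followed by Zfp451 (0.94), Foxp1 (0.92) and Arid2 (0.92), and Prrx1 by Tnpo1 (0.96) and Spred1 (0.95). Cav1 was closest to S1pr1 (0.93), Lamp2 (0.92) and Actr2 (0.92), and Cav2 to Rod1 (0.98), Foxn2 (0.97) and Hiatl1 (0.96). The closest to Sh3pxd2a were Ehmt1 (0.74), Ucp3 (0.72) and Plekhf1 (0.70), to Cand2 Tollip (0.86), Ctnna1 (0.84) and Rerg (0.83), and to Myoz1 Pip5k1c (0.77), Mtbp (0.75) and Mon1b (0.70). The points share libraries and depth, and at least 9339 genes were searched for each.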

How the data were processed

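Libraries were prepared with a TruSeq kit from 300 ng of RNA. Per the submitters' notes reads were aligned with STAR to mm10 and normalized with DESeq2, with versions not given. The authors deposited a signal per gene and library, a read count divided by a size factor, in a separate table for each atrium. Nonzero values were whole multiples of a step in 100% of cases within 0.01 reads, so reads could be recovered, with little power in left mutant 3, whose step is close to 1. The tables also hold log2 fold changes and adjusted p-values of the authors' own, which were not used. Of 40924 right entries, 6275 without values and 1203 repeats were removed.

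Genes with a mean of at least 10 were tested per atrium with limma 3.58.1 (R 4.3.3) on log2(normalized count + 1) with trended variances, and p was adjusted over all tested genes by the Benjamini-Hochberg method and called under 0.05. The difference between atria was an interaction contrast over the 20 libraries. The script was tested on simulated data. Alternatives were edgeR 4.0.16 and DESeq2 1.42.0 on recovered reads, pseudocounts of 0.5 and 5, other filters and scalings, robust estimation, all 4 groups together, a replicate block and leaving out single libraries. Positions are from GENCODE M21 (mm10) and promoters from RefSeq (GRCm38.p6). Named genes were the 9 members, called partners (up to 4 per list and atrium), paralogs, nearest tested neighbours and the 3 genes of highest correlation (mean of at least 50), of which 1 is not reported here. The members and lists were chosen with earlier results of these data known.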

Additional observations from a re-analysis of the deposited data

Results flagged for a closer look

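In groups of 5 libraries, a highest or lowest value was looked for whose gap to the next exceeded 0.71 of the group's range, over 36 groups of the 9 genes, and chance flags about 1 in 20 such groups. Left control 1 stood apart from the other left controls in Syne2, at 4027 normalized counts (ratio 0.719), and it is the library in which Ucp1 was at 795. Left control 4 stood apart in Sh3pxd2a, at 1097 normalized counts (ratio 0.843), and it is the library with the highest share of mitochondrial rRNA, 46.7%, and the fewest genes with a read, 17019.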

How the results depend on the processing

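The right atrium calls of Neurl1a and Syne2 were kept in all leave-one-out fits and in 10 of 11 other settings, and ended with all 4 groups in one model. That setting gave 292 called genes in the right atrium, against 890, and 1233 in the left, against 158. DESeq2 gave 431 in the left atrium and 1312 in the right. Without single libraries the right count ran from 600 to 1091, the left from 71 to 370 (370 without mutant 4) and the difference between atria from 0 to 18, against 10. The difference gave 17 calls with a pseudocount of 5 and 2 with right and left libraries of a number blocked as 1 animal, a fit added after seeing the data. With replicate number as a block the counts were 885 (right) and 693 (left), Cav2 in the left atrium had an adjusted p of 0.0479 (log2 fold change -0.78) and Neurl1a 0.0529. Same-numbered control and mutant libraries had correlations of -0.03 to 0.32 (right) and 0.06 to 0.34 (left), and in each atrium at least 1 pair was at 0.1 or less, so the numbers were not taken to pair them. In left atria 3 of 5 controls correlated best with the mutant of their own number. Right and left controls of a number had correlations of 0.27 to 0.40, and mutants of -0.07 to 0.20. Right controls 1 to 4 and right mutants 2 to 5 correlated best with the left library of their own number. The main contrast between atria did not model a shared animal. Signs turned for differences that were not called. Without single libraries Zfhx3 in the right atrium ran from -0.176 to 0.0151 (above 0 without mutant 4), Syne2 in the left from -0.0252 to 0.188 (below 0 without control 5 or mutant 2) and the Neurl1a difference between atria from -0.21 to 0.523 (below 0 without left control 2 or 3), and that difference was -0.32 with a pseudocount of 5. The genotype difference in the log2 ratio of Cav1 to Cav2 ranged from -0.00958 to 0.14 in the right and 0.39 to 0.72 in the left atrium without single libraries. Myoz1 in the right atrium without a filter had adjusted p of 0.00874 by edgeR and 0.00391 by DESeq2, in fits added after its values were seen. Left atrium values of Neurl1a and Myoz1 rest on 0 to 38 reads a library.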
